A study of Drosophila melanogaster with 16 samples.

Results

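The genes described here encode the proteins of the mitochondrial ribosome in Drosophila melanogaster. They were taken as every gene of the count table whose NCBI symbol starts with mRpL (large subunit) or mRpS (small subunit), which gave 73 of 17207 genes, 47 for the large and 26 for the small subunit. Counts were available for larvae, described in the methods as female, that carried either Alstonville or Dahomey mtDNA and had been raised on food in which protein and carbohydrate stood at 1:2 or 1:16 (P:C). The 4 groups, Alstonville 1:2 P:C, Dahomey 1:2 P:C, Alstonville 1:16 P:C and Dahomey 1:16 P:C, had 4 libraries each. Both mitotypes were carried on a w1118 nuclear background built by balancer chromosome replacement and repeated backcrossing, without Wolbachia. The lines thus differ in mtDNA and possibly in residual chromosome 4 variation. The methods describe the larvae of both diets as wandering, in their last instar. The study calls the 4 libraries of a group independent biological replicates, and it is not given whether they came from separate bottles or lines. The labels' extraction text speaks of sorted cells and of total RNA, whereas the methods describe wandering larvae and poly(A) pull-down, and the methods are followed here.

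Mitochondria keep their own ribosome to translate the few proteins that mtDNA still encodes, all of them parts of the oxidative phosphorylation complexes. Its rRNAs are made from mtDNA inside the organelle, whereas all of its proteins are encoded in the nucleus, made in the cytosol and imported. Part of these proteins have counterparts in the bacterial ribosome and part were added in mitochondria, and the whole set is expressed in every tissue that respires.

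Of the 73 genes, 72 passed the filter of at least 0.25 CPM (reads per 1e+06 assigned reads, with library sizes adjusted by TMM, edgeR's trimmed mean scaling) in at least 4 libraries, 46 for the large and 26 for the small subunit. The gene that did not, mRpL53, had 0 reads in all libraries, and all of its exon bases lie within exons of other genes, so reads from it could not be assigned to it alone. The other 72 genes had 60 to 1990 reads per library at a depth of 24869991 to 31896525 assigned reads. They lie on 3R (21 genes), 3L (17), 2L (12), 2R (11) and X (11), and 65 of them share at most 20% of their exon bases with another gene. Strand was not stated to be used in counting, so the counts of the others, among them mRpS24, mRpS21, mRpS9, mRpL13 and mRpL17, are less certain.

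Per kb of exon, the mean level over the 4 groups ranged from 4.43 CPM per kb for mRpL21 to 40.1 for mRpL28, a 9.06-fold span, and 68 of 72 genes lay within a factor of 2 of the median of 13.5. The subunits were alike, with medians of 13.7 CPM per kb for large and 13.5 for small subunit genes. In the small subunit mRpS9, whose bacterial counterpart reaches with its tail to the P-site tRNA, was highest at 29.3 CPM per kb, and mRpS24 was lowest at 7.45. The order of the genes was similar in all groups, with a Spearman correlation of 0.78 to 0.97 over the 72 genes for the 6 pairs of groups, a description in which the genes share libraries and exon lengths. Between groups the whole set moved together, as the plot of every gene's level shows.

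**Figure D1:**
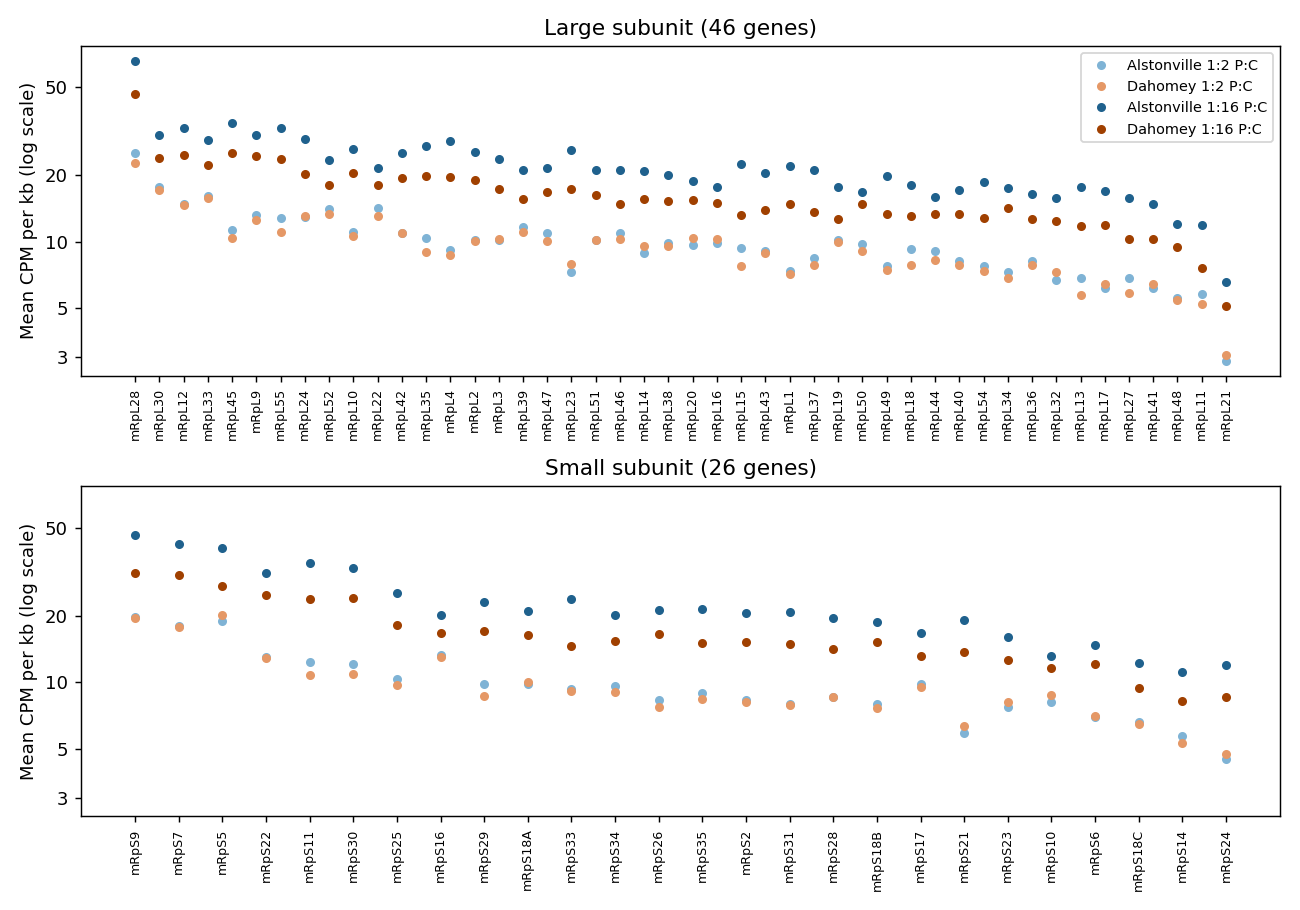
Mean level of each tested gene in CPM per kb of exon (log scale) in the 4 groups, large subunit above (46 genes) and small subunit below (26 genes), ordered by the mean over groups. In all 72 genes the Alstonville 1:16 P:C mean is highest and the Dahomey 1:16 P:C mean comes next.

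Averaged over genes, the large subunit level was 9.37, 9.17, 9.46 and 12.3 CPM per kb in the 4 Alstonville 1:2 P:C libraries, and 9.85, 10.2, 9.50 and 8.99 in the Dahomey 1:2 P:C libraries. It was 23.1, 21.6, 21.8 and 23.2 CPM per kb in the Alstonville 1:16 P:C libraries, and 17.7, 14.0, 18.4 and 16.0 in the Dahomey 1:16 P:C libraries. The small subunit means followed closely, at 10.1 ± 1.45 (SD, n = 4), 9.85 ± 0.270, 23.0 ± 0.727 and 16.9 ± 2.06 CPM per kb in the same order of groups. All libraries of the high carbohydrate diet thus lay above all libraries of the 1:2 P:C diet for both subunits, the mitotypes overlapped on 1:2, and on 1:16 every Dahomey library lay below every Alstonville library. The ratio of large to small subunit mean level was 1.00 ± 0.0175, 0.979 ± 0.0596, 0.974 ± 0.0103 and 0.977 ± 0.00837 in the 4 groups, so the subunits kept nearly the same proportion while their level changed.

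**Figure D2:**
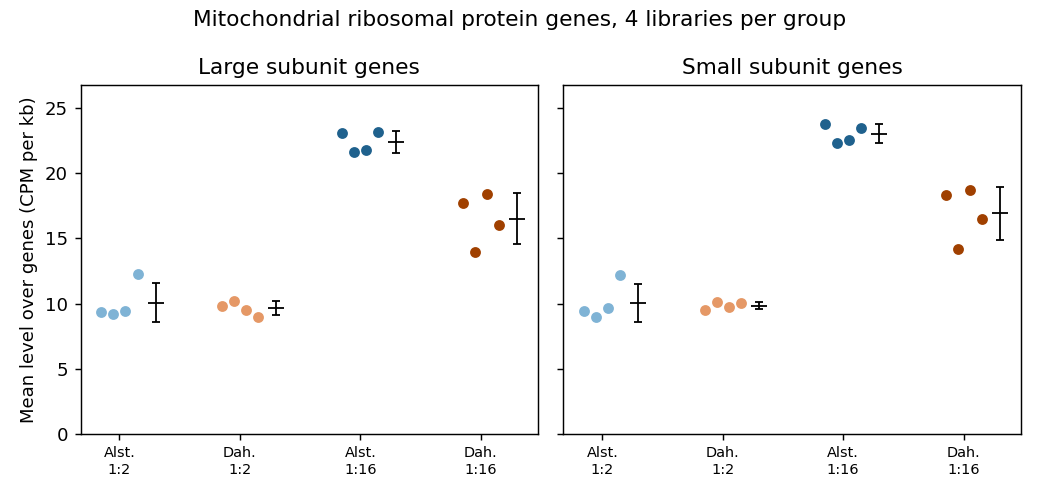
Mean level over large subunit genes (left) and small subunit genes (right) in CPM per kb for each library, with the group mean and SD as a black bar. Alstonville 1:2 P:C replicate 4 (12.3 for the large subunit) stands above its group and Dahomey 1:16 P:C replicate 2 (14.0) below its own.

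Libraries within a group were not equally close. Alstonville 1:2 P:C replicate 4 was the highest of its group for 63 of 72 genes and Dahomey 1:16 P:C replicate 2 the lowest of its group for 61. The former library was also the highest of its group in summed markers of muscle (7 genes, 27115 CPM against at most 6768), fat body (6 genes, 145206 against at most 73638) and midgut (6 genes, 13175 against at most 6523), and its TMM factor was 0.849 against 1.16 to 1.19. Before TMM scaling its share of reads on the 72 genes was 0.0677%, the lowest of its group. The latter library held 3481 CPM of 7 salivary gland glue genes against at most 6.65 in the rest of its group. The part of these differences in the results was not tested, and counts of called genes are also given without both libraries.

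Markers of males and testis went against the description as female in part of the libraries. Of the 14 markers 13 or 14 had reads in each group, and Mst84Da alone was at 0 in both groups on 1:16. The level of roX1, an RNA of male dosage compensation, was 15.8, 151.6, 190.5 and 20.8 CPM in Alstonville and 13.0, 189.1, 16.0 and 684.7 in Dahomey larvae on 1:2, and it was 112.5 to 503.4 and 258.1 to 346.5 on 1:16. The 12 testis genes summed to 1.23, 163.9, 108.1 and 0.724 CPM in Alstonville and to 1.25, 48.5, 1.55 and 389.1 in Dahomey larvae on 1:2, so that replicates 2 and 3 of the former and 2 and 4 of the latter held testis RNA. On 1:16 they summed to 0.575 to 7.81 CPM in Alstonville and 23.4 to 70.1 in Dahomey larvae, without overlap. Of the 13 markers tested edgeR called 0 between mitotypes on either diet, and at an unadjusted p under 0.05 there were 0 on 1:2 and 3 on 1:16. Between diets 4 of the 13 were called lower on 1:16 in Alstonville (3742 of all 12750 genes) and 0 in Dahomey. Without the 4 libraries on 1:2 that held testis RNA, the mitochondrial ribosomal genes called were 72 and 68 for diet in Alstonville and Dahomey, 28 for mitotype on 1:16, and 0 for mitotype on 1:2 and for the interaction. Of all 12097 genes in that fit, 3188 and 4216 were called higher with diet and 968 lower in Dahomey on 1:16. For mitotype on 1:2 the calls over all genes were 3 higher and 0 lower, and for the interaction 0 and 1. On 1:2 that fit kept only replicates 1 and 4 of Alstonville and 1 and 3 of Dahomey. The fit kept the Dahomey libraries on 1:16, whose testis genes summed to 23.4 to 70.1 CPM, so testis RNA remained in it. Every library on 1:16 had roX1 at 112.5 CPM or more, and the part of male RNA in the results there was not tested.

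The first comparison asks how the set answers to the diet within each mitotype. In Alstonville larvae all 72 genes were higher on 1:16 than on 1:2 P:C at an adjusted p under 0.05, against 30.6% of the 12750 genes tested that were called higher (quasi-likelihood F-tests in edgeR, adjusted over all genes by Benjamini-Hochberg). The median log2 fold change was 1.20 (2.30-fold), 1.19 for the large and 1.24 for the small subunit, and single genes ranged from 0.59 (mRpS16) to 1.82 (mRpL23), while the median over all genes was -0.11. In Dahomey larvae all 72 genes were again higher on 1:16, against 24.6% of all genes, with a median of 0.76 (1.69-fold; 0.75 for the large and 0.78 for the small subunit), a range of 0.35 (mRpL19) to 1.27 (mRpL45) and a median over all genes of -0.12. The 4 libraries per diet did not overlap within either mitotype for any of the 72 genes (in this direction 29.1% of all genes in Alstonville and 25.1% in Dahomey), and for 62 of them all 8 libraries on 1:16 lay above all 8 on 1:2 (14.8% of all genes).

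Among the large subunit genes the change was greatest in Alstonville for mRpL23, mRpL4, mRpL45 and mRpL1. In bacteria L23 sits at the exit of the peptide tunnel. mRpL23 (3L, 2372844 to 2373704) had 5.14, 4.27, 4.16 and 6.96 CPM in Alstonville larvae on 1:2 and 17.3, 19.3, 18.1 and 17.9 on 1:16. In Dahomey larvae it had 8.26, 4.87, 4.998 and 4.05 CPM on 1:2 and 13.2, 8.68, 14.5 and 11.96 on 1:16. The diets were far apart in Alstonville and narrowly apart in Dahomey, where the highest 1:2 library came close to the lowest 1:16 library. The log2 fold changes were 1.82 (SE 0.23, adjusted p = 2.14e-05) and 1.12 (SE 0.23, adjusted p = 0.00127).

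Of the mammalian counterpart of mRpL45 it is known that it lies at the tunnel exit and ties the ribosome to the inner membrane. mRpL45 (3R, 22618492 to 22619826) rose in Alstonville from 12.1, 11.4, 13.9 and 19.9 CPM to 48.0, 44.4, 40.9 and 42.2. In Dahomey it rose from 14.2, 14.2, 12.02 and 12.6 CPM to 33.3, 24.1, 38.1 and 32.2. Its change was 1.62 (SE 0.17, adjusted p = 5.93e-06) in Alstonville and 1.27 (SE 0.17, adjusted p = 8.98e-05) in Dahomey, the largest of the set there. mRpL4, whose bacterial counterpart lines the peptide tunnel, changed by 1.64 (SE 0.15) and 1.17 (SE 0.14), and mRpL1, counterpart of the mobile L1 stalk that moves deacylated tRNA, by 1.58 (SE 0.14) and 1.05 (SE 0.14).

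In the small subunit mRpS21, mRpS11, mRpS30 and mRpS24 led in Alstonville, and mRpS11, mRpS30, mRpS21 and mRpS26 in Dahomey. mRpS11 (3R, 17072732 to 17073795) belongs to the platform along which mRNA leaves. Its level was 7.32, 7.51, 8.76 and 12.3 CPM in Alstonville larvae on 1:2 and 26.5, 23.6, 24.8 and 25.6 on 1:16. In Dahomey larvae it was 8.33, 8.06, 7.09 and 7.91 CPM on 1:2 and 19.7, 13.8, 19.8 and 16.1 on 1:16, so that all libraries on 1:16 were above all on 1:2. The change was 1.48 (SE 0.16, adjusted p = 6.25e-06) in Alstonville and 1.14 (SE 0.16, adjusted p = 0.000113) in Dahomey. mRpS21 (3R, 13381276 to 13381809) changed by 1.70 (SE 0.14) and 1.11 (SE 0.14), with 48.0% of its exon bases shared with other genes, and mRpS30, whose mammalian counterpart is found in the large subunit in spite of its name, by 1.45 (SE 0.16) and 1.14 (SE 0.16).

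**Figure D3:**
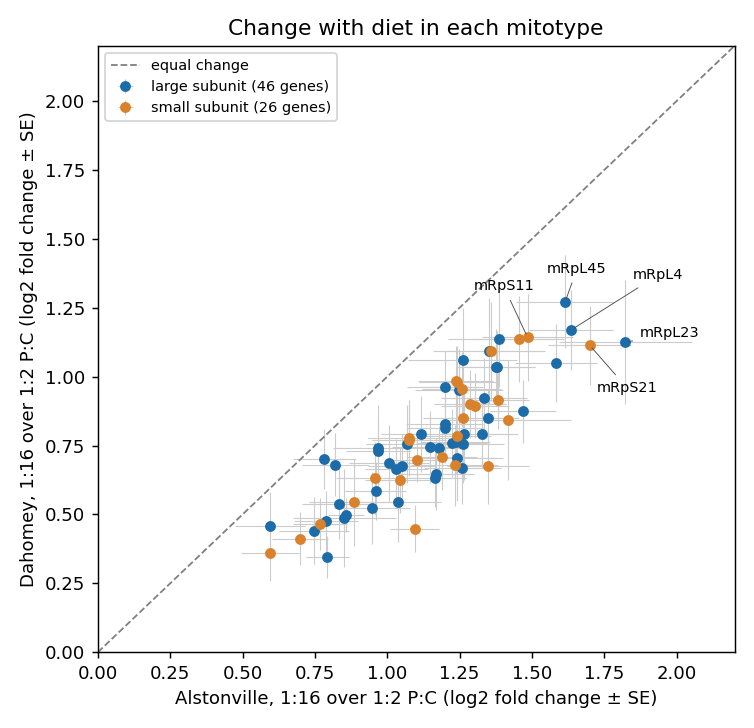
Log2 fold change of 1:16 over 1:2 P:C with SE for each tested gene in Alstonville (x axis) and Dahomey larvae (y axis), large subunit in blue and small subunit in orange. All 72 genes lie above 0 on both axes and below the dashed line of equal change, from mRpS16 at 0.59 and 0.36 to mRpL23 at 1.82 and 1.12.

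Genes that changed more in Alstonville also changed more in Dahomey (Pearson r = 0.87 and Spearman rho = 0.87 over 72 genes, beside 0.84 and 0.90 over all 12750 genes). The libraries of the 2 changes are separate, but the genes were fitted together and share their lengths and depth. The least changed were mRpS16 and mRpL22 in Alstonville and mRpL19 and mRpS16 in Dahomey, all of them still called. By number alone, small subunit genes without a bacterial number had medians of 1.27 in Alstonville and 0.88 in Dahomey (12 genes), and those with one 1.10 and 0.69 (14 genes). In the large subunit the order was the other way, with 1.09 and 0.71 for the 18 later numbers and 1.21 and 0.76 for the 28 bacterial ones. The numbers do not always show descent, since mammalian MRPS24 stands for bacterial S3.

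Genes fixed by their role followed the set. For the peptidyl transferase centre the change in Alstonville was 1.34 (SE 0.15) for mRpL2 and 1.22 (SE 0.12) for mRpL3, and for the stalk that recruits elongation factors it was 1.25 (SE 0.15) for mRpL10, 1.04 (SE 0.15) for mRpL11 and 1.15 (SE 0.13) for mRpL12. The same genes changed by 0.92, 0.76, 0.95, 0.55 and 0.74 in Dahomey. Of the mRpS18 family, which has 3 genes where bacteria have a single protein, mRpS18A, mRpS18B and mRpS18C changed by 1.10, 1.24 and 0.89 in Alstonville and by 0.70, 0.98 and 0.54 in Dahomey. mRpS29, a GTP-binding protein known in mammals as DAP3, changed by 1.24 and 0.98, and mRpS7 of the small subunit head by 1.24 and 0.78.

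The diets also differed in markers of tissues. The summed level of the 7 muscle markers was 1609 to 27115 CPM in Alstonville and 2633 to 11156 in Dahomey larvae on 1:2, and 55084 to 62079 and 25886 to 53296 on 1:16. All 7 were detected in every group, and 6 were called higher on 1:16 in each mitotype (30.6% of all genes in Alstonville and 24.6% in Dahomey). The 6 fat body markers summed to 47621 to 145206 and 55485 to 88085 CPM on 1:2 and to 5379 to 35828 and 31891 to 48673 on 1:16. Of these 6, 4 were called lower on 1:16 in Alstonville (3742 of all 12750 genes) and 3 in Dahomey (3112), and 0 higher. The mean of Lsp1beta was higher on 1:16 in both mitotypes (6648 CPM on 1:2 and 22147 on 1:16 in Dahomey). That of Lsp1gamma was higher in Dahomey (7386 and 10941 CPM). Of the 10 salivary gland markers, the 7 glue genes (6 Sgs genes and Eig71Ee), active late in larval life, summed to 9491 to 15609 and 11582 to 18308 CPM on 1:2. On 1:16 their sum was 5.09 to 7.18 CPM in Alstonville, and 4.79, 5.45 and 6.65 in Dahomey replicates 1, 3 and 4 against 3481 in replicate 2. The 3 genes ng1, ng2 and ng3, active before the glue genes, went the other way, from 0.4997 to 37.1 and 1.04 to 12.007 CPM on 1:2 to 682.6 to 971.5 and 386.6 to 1051.6 on 1:16. Larvae on both diets are described as wandering, but the diets were not matched in the glue and ng levels. A difference of diet and one of stage can therefore not be told apart here. The 6 midgut markers summed to 3051 to 13175 and 4261 to 6783 CPM on 1:2 and to 17526 to 21497 and 13354 to 25215 on 1:16. Of these 6, 4 were called higher on 1:16 in each mitotype (30.6% and 24.6% of all genes) and 1 lower. The lower one was Jon25Bi, with means of 86.9 CPM on 1:2 and 33.7 on 1:16 in Alstonville, and 44.9 and 16.2 in Dahomey. The part of tissue make-up or of age within the instar in the change of the ribosomal genes was not tested, and in whole larvae more cells of a tissue and more RNA per cell cannot be told apart.

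The size of the change depended on scaling more than its direction did. The TMM factors ranged from 0.794 to 1.21 and were mostly lower on 1:16. As a share of all assigned reads without TMM, the set took 0.0703% ± 0.0025 and 0.0703% ± 0.0024 on 1:2 in Alstonville and Dahomey larvae, and 0.125% ± 0.0077 and 0.106% ± 0.0050 on 1:16 (SD, n = 4). The shares rose 1.77-fold in Alstonville and 1.51-fold in Dahomey. In all 31 fits all 72 genes were higher on 1:16 in both mitotypes, and the count of called genes was 72 throughout in Alstonville and 68 to 72 in Dahomey. Over all genes the calls higher ran from 3183 to 4674 in Alstonville and from 2614 to 4656 in Dahomey. The fits are not independent. Surrogate variables taken from the residuals left the log2 fold changes of limma the same, and some fits only left out libraries of other groups.

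The second comparison asks how the mitotypes differ on each diet. On the 1:2 P:C diet none of the 72 genes was called, as were only 0.0941% of all genes, and at an unadjusted p under 0.05 there were 0 (4.4% of all genes). DESeq2 and limma called 0 as well. Over all 12750 genes DESeq2 called 38 higher and 49 lower. The calls of limma ran from 14 and 6 with 0 surrogate variables to 88 and 127 with 3. For Dahomey against Alstonville the median log2 change was -0.04 (-0.06 for the large and -0.03 for the small subunit), with single genes from -0.26 to 0.13 and a median SE of 0.13. The libraries of the mitotypes overlapped for all 72 genes, while they did not for 1.2% (Dahomey higher) and 0.831% (Dahomey lower) of all genes.

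The lowest p-values on 1:2 in each subunit belonged to mRpL15 and mRpL13 and to mRpS29 and mRpS11. mRpL15 had 8.20, 7.98, 10.4 and 11.9 CPM in Alstonville and 7.81, 8.42, 6.96 and 8.93 in Dahomey larvae. Its log2 fold change was -0.26 (SE 0.14, adjusted p = 0.976), and those of the other 3 were -0.25, -0.18 and -0.19 at the same adjusted p. The sign of the subunit medians rests on Alstonville 1:2 P:C replicate 4, since they moved to 0.06 and 0.07 when it was left out.

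On the 1:16 P:C diet 39 of 72 genes were lower in Dahomey than in Alstonville larvae at an adjusted p under 0.05, 24 of 46 in the large and 15 of 26 in the small subunit, against 9.3% of all genes. None was higher, against 6.01% of all genes. The median log2 fold change was -0.44 (-0.43 for the large and -0.44 for the small subunit, 0.738-fold), while it was -0.03 over all genes, and all 72 genes lay below 0 (52% of all genes), from -0.77 to -0.18. At an unadjusted p under 0.05 there were 65 (32% of all genes). The libraries did not overlap for 53 genes, 35 and 18 in the 2 subunits, against 24.2% of all genes in that direction.

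mRpL15 (3L, 20435110 to 20436209) had the greatest difference of the set. It had 23.7, 21.7, 24.8 and 22.3 CPM in Alstonville and 14.5, 11.2, 16.0 and 12.4 in Dahomey larvae, a log2 fold change of -0.77 (SE 0.14, adjusted p = 0.00383). mRpL11 (3R, 14511838 to 14512691), part of the centre that activates the GTPase factors, had 9.25, 9.63, 8.05 and 8.04 CPM against 6.13, 4.55, 6.16 and 5.63. The lowest Alstonville library was above the highest Dahomey library for both genes, which was a condition of naming them. For mRpL11 the change was -0.64 (SE 0.15, adjusted p = 0.0117). mRpL37, which has no bacterial counterpart, and mRpL27, whose bacterial counterpart reaches towards the peptidyl transferase centre, changed by -0.62 (SE 0.12) and -0.61 (SE 0.13).

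In the small subunit mRpS33, mRpS9, mRpS5 and mRpS11 differed most. mRpS33 (3R, 16436045 to 16436597), found in mitochondria and not in bacteria, had 11.7, 11.6, 10.9 and 12.5 CPM in Alstonville and 7.56, 5.92, 8.13 and 7.14 in Dahomey larvae. Its change was -0.70 (SE 0.14, adjusted p = 0.00598). mRpS5 (3L, 24537236 to 24543534), at the entry of the mRNA channel in bacteria, had 66.4, 70.8, 66.7 and 68.5 CPM against 51.6, 41.1, 46.6 and 45.0, a change of -0.56 (SE 0.09, adjusted p = 0.00155). mRpS9 changed by -0.57 (SE 0.15, adjusted p = 0.0201) and mRpS11 by -0.54 (SE 0.15, adjusted p = 0.0324).

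**Figure D4:**
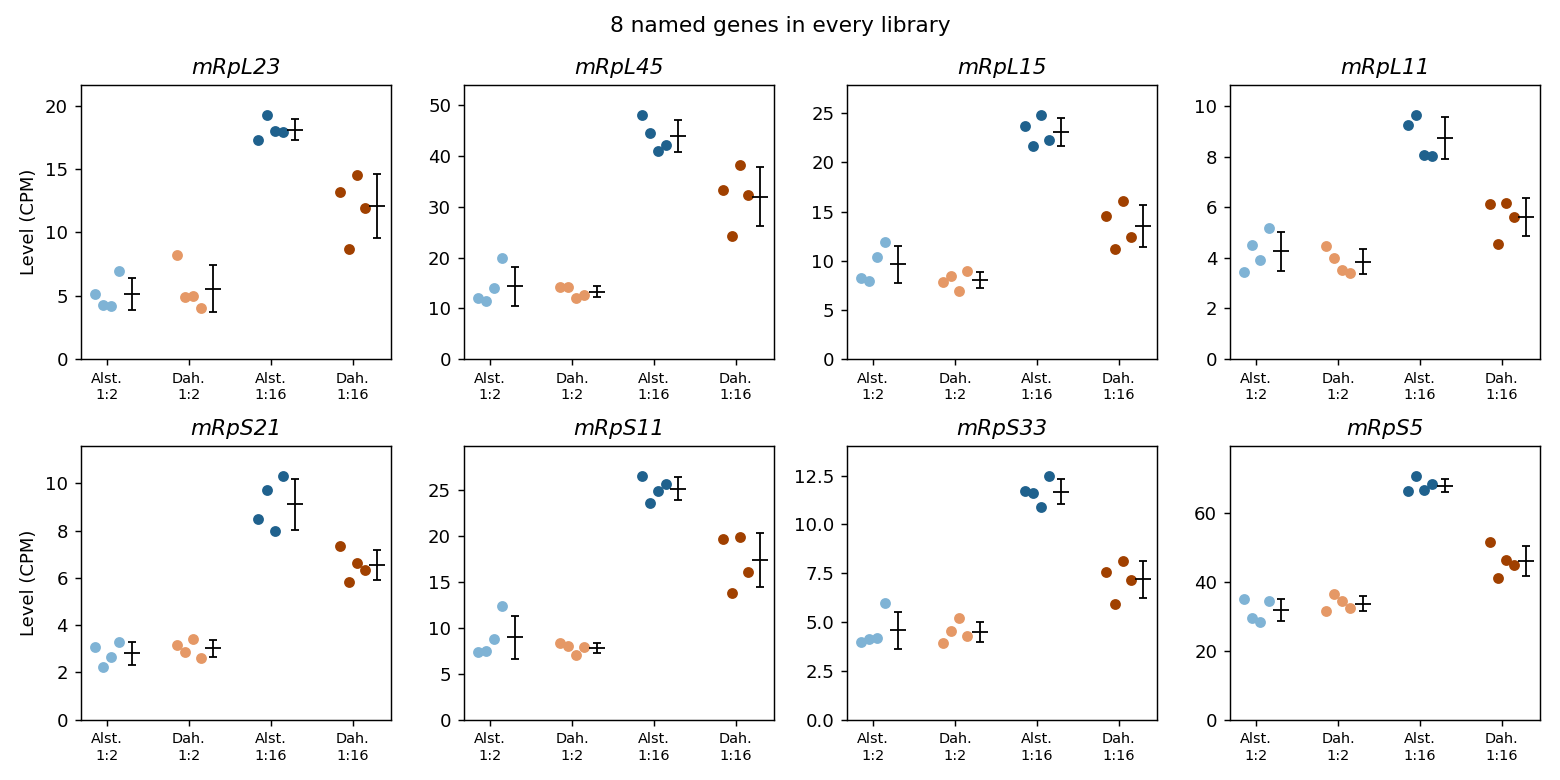
Level in CPM of 8 genes in every library (points), with the group mean and SD as a black bar. On 1:16 the Dahomey libraries lie below the Alstonville libraries in all 8 genes, for example 41.1 to 51.6 against 66.4 to 70.8 CPM for mRpS5. For mRpL15, mRpL11, mRpS11, mRpS33 and mRpS5 this lack of overlap was a condition of their choice. In the whole set 53 of 72 genes showed it (24.2% of all genes). On 1:2 the libraries of the mitotypes overlap.

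Of the genes fixed by role, mRpL3 (-0.46, SE 0.12, adjusted p = 0.0238), mRpL12 (-0.41, SE 0.13, adjusted p = 0.0465), mRpS7 (-0.47, SE 0.12, adjusted p = 0.0178), mRpS29 (-0.44, SE 0.13, adjusted p = 0.0378) and mRpS18A (-0.37, SE 0.08, adjusted p = 0.0105) were also lower in Dahomey. The values of mRpL2 (-0.42, adjusted p = 0.0651), mRpL10 (-0.36, adjusted p = 0.113), mRpS18B (-0.30, adjusted p = 0.122) and mRpS18C (-0.36, adjusted p = 0.129) did not pass the test. The genes that passed and those that did not overlapped in the size of the difference, as the plot of all 72 shows. mRpL39 passed at -0.43 with an SE of 0.06, and mRpL23 did not at -0.59 with an SE of 0.22.

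**Figure D5:**
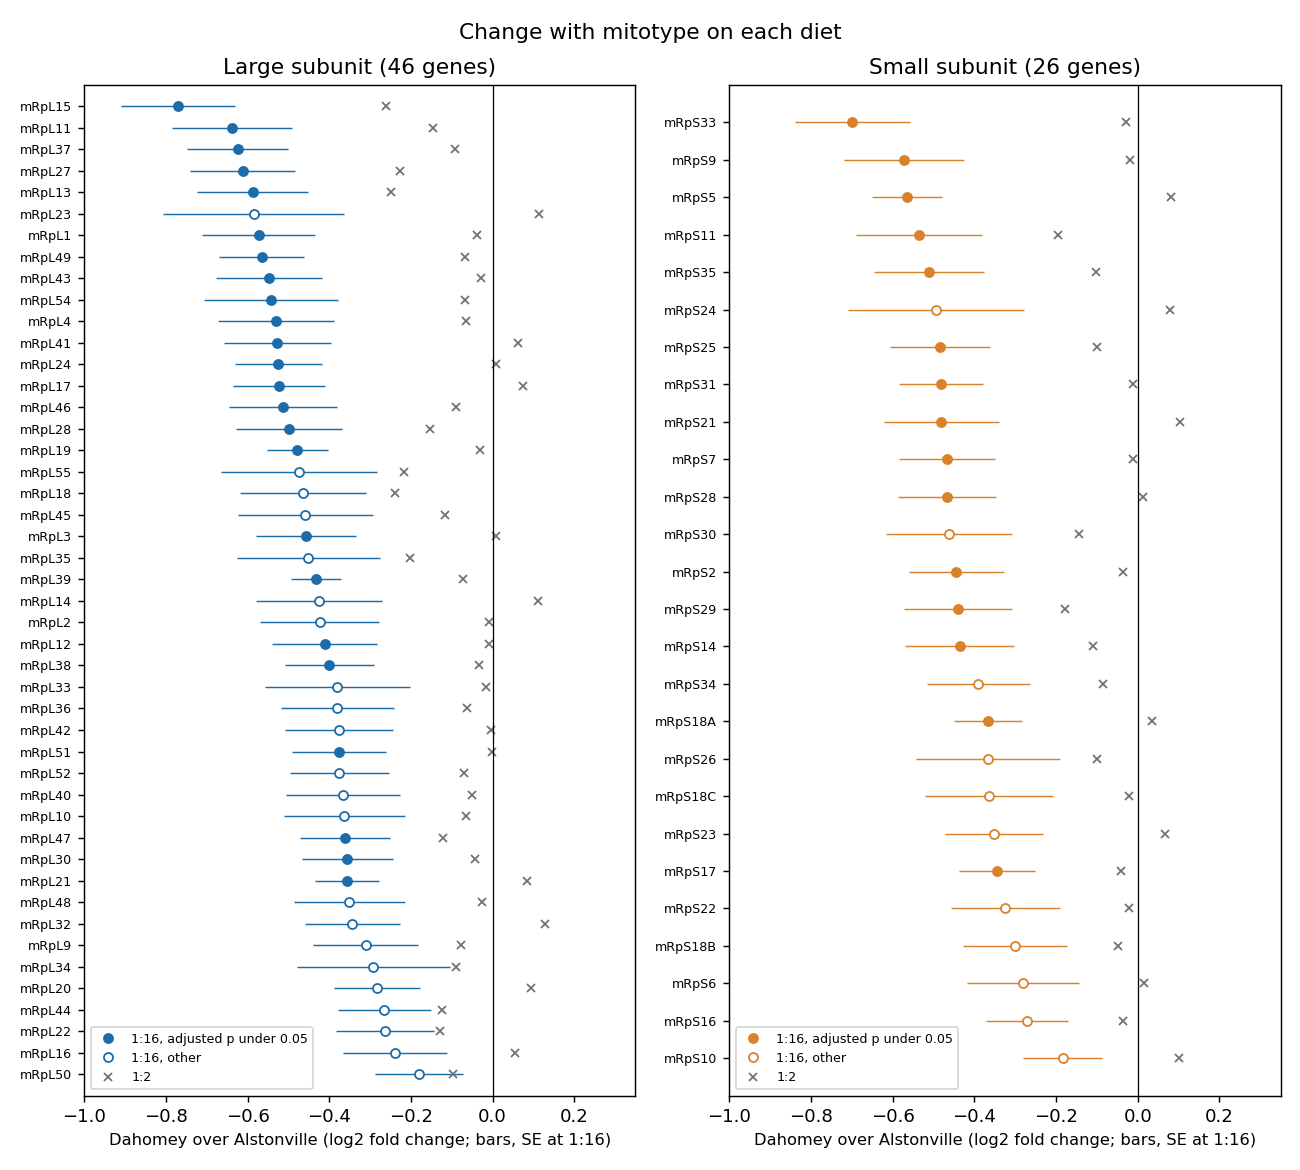
Log2 fold change of Dahomey against Alstonville for the large (left) and small subunit genes (right). Circles with SE bars are the 1:16 P:C diet, filled where the adjusted p was under 0.05, and crosses are the 1:2 P:C diet. All circles lie below 0, from -0.77 to -0.18, and the crosses lie between -0.26 and 0.13.

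The number of called genes on 1:16 depended on single libraries more than the differences did. It was 17 without Dahomey 1:16 P:C replicate 2, 18 in the fit lacking Alstonville 1:16 P:C replicate 1 and also in that lacking Dahomey 1:16 P:C replicate 4, 25 and 24 for Alstonville 1:16 P:C replicates 3 and 4, 38 without both libraries that stand apart, and 28 without the 4 libraries on 1:2 that held testis RNA. Over all genes the calls lower in Dahomey were 761, 598, 591, 666, 839, 1472 and 968 in the same order of fits, beside 1186 in the fit reported. Upper-quartile scaling gave 20, moving the median of all genes from -0.03 to 0.11 and that of the set from -0.44 to -0.30. A scaling factor moves every gene of a library alike, so the gap between the medians, -0.41, is the same under each scaling by construction. Without TMM the share of reads on the set in Dahomey was 0.851-fold that in Alstonville larvae on 1:16. Muscle markers summed to 55084 to 62079 CPM in Alstonville and 25886 to 53296 in Dahomey larvae on this diet without overlap, and edgeR called 0 of the 7 between mitotypes (0 at an unadjusted p under 0.05). Fat body markers summed to 5379 to 35828 CPM in Alstonville and 31891 to 48673 in Dahomey larvae, with 2 of 6 called higher in Dahomey, Fbp1 and Lsp2, and 1, Lsp2, without Dahomey replicate 2 (6.01% of all genes were called higher). The 7 glue genes were called higher in Dahomey through replicate 2 alone, since 0 were called without it and their median log2 fold change went from 6.91 to 0.06. Testis genes, without overlap, and roX1 were described above. The part of these tissues in the difference was not tested.

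The third comparison is the interaction, which asks whether the mitotypes answer differently to the diet. In all 72 genes the change with diet was larger in Alstonville than in Dahomey larvae, which held for 50.8% of all genes, with a median difference of -0.37 on the log2 scale (-0.37 for the large and -0.36 for the small subunit; -0.01 over all genes). As a test of single genes, 1 passed, against 0.784% of all genes, and 34 had an unadjusted p under 0.05, against 15.2% of all genes. The gene was mRpS5, which rose from 35.1, 29.7, 28.4 and 34.4 CPM to 66.4, 70.8, 66.7 and 68.5 in Alstonville and from 31.5, 36.5, 34.7 and 32.4 CPM to 51.6, 41.1, 46.6 and 45.0 in Dahomey larvae. The changes with diet were 1.09 (SE 0.09) and 0.45 (SE 0.09), and they differed by -0.65 (SE 0.12, adjusted p = 0.0373). Of the large subunit mRpL19 (-0.45, SE 0.11, adjusted p = 0.0621) and mRpL39 (-0.36, SE 0.09, adjusted p = 0.0656) had the lowest p-values.

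The interaction call of mRpS5 was lost under 13 of the alternatives, among them leaving out single libraries, and the count for the set ranged from 0 to 14 when single libraries were left out, the highest without Alstonville 1:2 P:C replicate 4. Without both libraries that stand apart it was 12, DESeq2 called 7, and limma with 1 to 3 surrogate variables called 13, 34 and 37. Without the 4 libraries on 1:2 that held testis RNA it was 0, beside 0 higher and 1 lower of all 12097 genes in that fit. The median difference there was -0.19 for the large and -0.18 for the small subunit. Over all genes the calls higher and lower were 48 and 52 in the fit reported and 398 and 344 with DESeq2. They were 132 and 264 without Alstonville 1:2 P:C replicate 4, and 103 and 215 without both libraries that stand apart. In limma they were 1502 and 496, 1872 and 1528, and 1953 and 1856 with 1, 2 and 3 surrogate variables. The group means ran from low to high as Dahomey 1:2, Alstonville 1:2, Dahomey 1:16 and Alstonville 1:16 in 54 genes and with the first pair exchanged in the other 18. Neighbours on 1:2 did not differ beyond their spread in any gene.

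Other protein genes of the same machinery that were called moved in the same direction, while srRNA did not. The small subunit genes tko and bonsai, whose symbols do not follow the mRp rule, were both higher on 1:16 in each mitotype and both lower in Dahomey on 1:16. tko, the counterpart of bacterial S12 of the decoding centre, averaged 18.1 ± 0.86 CPM in Alstonville and 13.9 ± 1.6 in Dahomey larvae on 1:16 (SD, n = 4; log2 fold change -0.39, adjusted p = 0.0410). bonsai, the counterpart of S15, averaged 27.9 ± 1.2 and 18.6 ± 2.4 CPM (-0.59, adjusted p = 0.0046). On 1:2 their differences were not called.

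Of 10 translation factors listed (12 symbols, 2 of them other names of listed genes) 8 were matched and tested. All 8 were called higher on 1:16 in Alstonville (30.6% of all genes), 4 of 8 in Dahomey (24.6%), and 2 of 8 lower in Dahomey on 1:16 (9.3%). The last were mEFG1, which moves the ribosome along the mRNA (26.8 ± 1.8 against 17.1 ± 2.6 CPM, log2 fold change -0.64, adjusted p = 0.0268), and mIF2, which brings the initiator tRNA (12.5 ± 0.54 against 8.07 ± 1.1 CPM, -0.63, adjusted p = 0.0155). mEFTu1, which delivers aminoacyl-tRNA, rose with diet by 1.52 and 1.18, while mEFTs, its exchange factor, rose by 0.55 in Alstonville and had a value of 0.41 (adjusted p = 0.0785) in Dahomey. Of 6 transcription and rRNA factors listed 5 were tested, of which, beside the same shares of all genes, 4 were called higher on 1:16 in Alstonville (30.6%), 3 in Dahomey (24.6%), and 2 lower in Dahomey on 1:16 (9.3%). Those 2 were mTerf3 (-0.48, adjusted p = 0.0111), needed for ribosome assembly in mammals, and bsf (-0.51, adjusted p = 0.0103), which binds and stabilises mitochondrial mRNAs. The sixth, mtTFB1, had 0 reads.

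The 2 rRNAs of the mitochondrial ribosome are encoded in mtDNA and, if RNA was selected by poly(A) as the methods say, were seen here only as far as they passed it. lrRNA of the large subunit had a change with diet of 0.70 (SE 0.17, adjusted p = 0.00345) in Alstonville and a value of 0.31 (SE 0.17, adjusted p = 0.163) in Dahomey. srRNA of the small subunit fell by 0.59 (SE 0.13, adjusted p = 0.00168) in Alstonville and by 1.13 (SE 0.13, adjusted p = 4.03e-05) in Dahomey on the log2 scale, opposite in direction to the RNA of the small subunit protein genes. Its level was 54.6 ± 5.5 and 79.7 ± 6.0 CPM on 1:2 in Alstonville and Dahomey larvae and 36.3 ± 6.8 and 36.3 ± 5.1 on 1:16. That of lrRNA was far higher, at 37663 ± 7916 and 41481 ± 1763 CPM on 1:2 and 61067 ± 5544 and 51302.5 ± 7850 on 1:16. How much of either rRNA passed the selection was not measured.

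Cytosolic ribosomal protein genes (symbols RpL, RpS and RpLP, 89 tested) were called higher on 1:16 for 82 genes in each mitotype (30.6% of all genes in Alstonville and 24.6% in Dahomey), with medians of 0.89 in Alstonville and 0.63 in Dahomey. Between mitotypes on 1:16, 8 of 89 were called lower in Dahomey, a share near the 9.3% of all genes, and 0 higher. The median was -0.32, and 83 of 89 lay below 0 (52% of all genes). At an unadjusted p under 0.05 in edgeR there were 69 (32%), and the libraries of 75 did not overlap, with Dahomey lower (24.2%). On 1:2 0 of these genes were called. Beside them the mitochondrial set had the larger medians, 1.20, 0.76 and -0.44, in the 3 comparisons that showed calls. The difference between the sets was not tested.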

How the data were processed

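RNA-seq was carried out on 16 libraries, grouped by the mitotype and diet in the labels. Per the paper's methods, the authors selected poly(A) RNA (the labels name total RNA as the extracted molecule), mapped read pairs with Subread (Release 6 plus ISO1 MT assembly) and summed them per gene with featureCounts. The deposited values are these raw counts. The treatment of strand and of reads mapping to several places is not given in the sources used here. Symbols came from RefSeq (17063 of 17207 gene IDs), exon lengths and positions from annotations of the same assembly.

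The 12750 genes that reached 0.25 CPM in 4 or more libraries were fitted in edgeR 4.0.16 (R 4.3.3) by robust quasi-likelihood with TMM scaling, 1 coefficient per group and all 16 libraries (12 residual degrees of freedom), and p was adjusted by Benjamini-Hochberg over all genes tested in a comparison. An adjusted p under 0.05 was called. SE was derived from F, as the absolute log2 change divided by its square root. In counts simulated for the comparison of mitotypes on 1:16, with 200 of 12606 genes changed by 2 on the log2 scale, edgeR recovered 168 with 5 other calls. Smaller changes, such as those between mitotypes here, were not simulated, so no rate of recovery is given for them. Replicate numbers gave correlations of deviations from -0.825 to 0.767 between same-numbered libraries and were not taken to pair them. Floors (3 reads) were 0.0790 to 0.139 CPM and cover counting error only.

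The genes and lists were chosen with earlier results of these data known. Genes with values are up to 4 per subunit with the largest called change and no overlap between the libraries of the 2 groups (for the interaction, called only), the 2 with the lowest p where there was none, those fixed by role, the highest and lowest levels per kb, and the other mitochondrial translation genes listed. Genes named for the smallest change, mRpL17 among those sharing exon bases, and Fbp1, Lsp2, Lsp1beta, Lsp1gamma, Jon25Bi, roX1 and Mst84Da were picked after values were seen. Alternatives were other scalings, filters and thresholds, DESeq2 1.42.0, limma 3.58.1 with 0 to 3 surrogate variables, a replicate block, the 8 libraries compared alone, and each library left out. Added after seeing the data were fits without both libraries that stand apart and without the 4 libraries on 1:2 that held testis RNA, and the split of the salivary gland markers. The authors' surrogate variables were not used in the main results because their number is not given. Sequences were not used here.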

Additional observations from a re-analysis of the deposited data

Results flagged for a closer look

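In Alstonville 1:2 P:C larvae, replicate 4 lay apart from the other 3 libraries in the mean large subunit level (12.3 CPM per kb against 9.17 to 9.46), in mRpS33 (5.99 CPM against 3.997 to 4.21), in mRpS9 (35.2 CPM against 21.6 to 23.6) and in mRpS18B (8.85 CPM against 6.09 to 6.32). In each case the gap to the nearest library, over the range of the group, was above the critical value of Dixon's test for 4 samples. In Alstonville 1:16 P:C larvae the ratio of large to small subunit mean level was 0.989 in replicate 4 against 0.967 to 0.970 in the rest. Of 132 groups of values examined 5 were marked in this way, and chance alone marks about 1 in 20.

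The change of mRpS5 with diet differed between the mitotypes by -0.65 on the log2 scale (interaction term in edgeR, adjusted p = 0.0373).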

How the results depend on the processing

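Over all fits the direction of the change was the same in 72 of 72 genes for diet in each mitotype and for mitotype on 1:16, in 63 of 72 for the interaction, and in 23 of 72 for mitotype on 1:2. The fits share libraries and are not independent checks of direction. For mitotype on 1:16 (39 genes called), 12 were called at an adjusted p under 0.01, 20 with upper-quartile scaling and 66 in limma with 2 or 3 surrogate variables, and 17 to 53 when single libraries were left out. Of all 12750 genes 1186 were called lower in the fit reported and 592 with upper-quartile scaling. With 2 and 3 surrogate variables 3318 and 3608 were called lower, and 591 to 1938 when single libraries were left out. The large subunit median was -0.29 with upper-quartile scaling. For the interaction (1 gene called), 0 were called at 0.01 and with upper-quartile scaling, 7 by DESeq2, 13, 34 and 37 in limma with 1, 2 and 3 surrogate variables, 12 without both libraries that stand apart and 0 to 14 when single libraries were left out. With DESeq2 and limma the calls over all genes rose as well, as given above. The large subunit median was -0.24 with upper-quartile scaling. Among all genes called on 1:16 between mitotypes, 39.2% were higher in Dahomey in the fit reported, 52.2% with relative log expression and 69.8% with upper-quartile scaling, and 62.7% with at least 10 counts in every library. For the interaction these shares were 48.0%, 63.1%, 83.2% and 74.3%. Without the 4 libraries on 1:2 that held testis RNA, the diet medians in Alstonville were 0.98 (large) and 1.03 (small subunit). The interaction there had 0 calls in the set (0 higher and 1 lower over all genes) and medians of -0.19 and -0.18. In the same fit 70.6% of all genes called on 1:16 between mitotypes were higher in Dahomey. The replicate numbers did not pair libraries (0 of 16 correlated best with their own number in each other group). With a replicate block 34 genes were called for mitotype on 1:16, 0 on 1:2, 72 for diet in each mitotype and 1 for the interaction. Over all genes the block fit called 1055 lower in Dahomey on 1:16, and 3869 and 3048 higher with diet in Alstonville and Dahomey. Depth limits single genes with few reads, such as mRpS21 and mRpS24, and 4 libraries per group limit differences of the size seen on 1:2. The alternative of only the libraries compared does not apply to the interaction.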
